A study of Mus musculus with 2 samples.

Results

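Voltage-gated calcium channels consist of a pore-forming α1 subunit and auxiliary subunits, and the genes described here encode the auxiliary β subunits (Cacnb1 to Cacnb4) and α2δ subunits (Cacna2d1 to Cacna2d4). These 8 genes were taken by family membership from the 22367 protein-coding genes of the GENCODE M1 annotation of the mouse genome build NCBIM37 (mm9), the mitochondrial genome left out. Their peaks were the 42 of 23308 Rfx6 binding peaks whose summit, the position of highest tag coverage, lay in one of the genes or within 50 kb of it.

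The study mapped where Rfx6, a winged-helix transcription factor of pancreatic endocrine cells, binds DNA in Min6b1, a mouse insulin-secreting β cell line. Cells were transfected with 24 µg of a plasmid coding for Rfx6 with a triple hemagglutinin tag (3HA-Rfx6) behind a CMV promoter and were harvested 2 days later, and ChIP-seq was performed, that is, DNA pulled down with an antibody to HA was sequenced. As the control served the same pull-down from Min6b1 cells that carry no transfection in their cell type label, although the growth protocol on both labels has the same text. Each condition had 1 library, so no value below has a replicate error, and the peaks are those of a tagged, overexpressed protein. A list of binding peaks holds no expression values, so the identity of the cells was not checked against marker genes.

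The pore subunit opens on depolarization and lets calcium in, which in β cells triggers the exocytosis of insulin, mainly through L-type channels. The β subunits are intracellular proteins that bind the loop between the first and the second repeat of α1, help to bring the channel to the membrane and shape its gating. The α2δ subunits are extracellular, are cut from a common precursor into α2 and δ, and remain linked by disulfide bonds. Some of them, not all, bind gabapentin. Rfx factors bind the X-box, an inverted repeat whose arms are written here as GTTGCC and GGCAAC with 0 to 3 bases between them.

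The sequences under 8 of the 42 summits are shown because they carry the results below. They are those of the leading peaks of the β genes Cacnb1 and Cacnb2 and of the peak nearest to a transcription start of its own gene (Cacnb3). The rest are those of all 5 peaks with at least 10 of the 12 X-box bases, which lay in Cacna2d3 and in or upstream of Cacna2d4. Each is 160 bases of NCBIM37 read 5′ to 3′ on the strand of the gene, with the summit at base 81 for genes on the plus strand and at base 80 for genes on the minus strand. Capitals mark the best X-box match, the bases between its arms included. The windows were, in the order of the lines, chr11:97864446-97864605 (minus), chr2:14530373-14530532 (plus), chr15:98464946-98465105 (plus), chr14:30525095-30525254 (minus), chr14:29885928-29886087 (minus), chr6:119151591-119151750 (plus), chr6:119192930-119193089 (plus) and chr6:119275125-119275284 (plus). The window in Cacnb1 was coding sequence throughout, and 29 bases of the window in intron 5 of Cacna2d4 were coding.
Cacnb1 exon 14: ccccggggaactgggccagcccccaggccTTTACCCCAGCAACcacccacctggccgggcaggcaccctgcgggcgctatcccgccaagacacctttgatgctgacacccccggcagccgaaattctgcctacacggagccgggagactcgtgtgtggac
Cacnb2 intron 1: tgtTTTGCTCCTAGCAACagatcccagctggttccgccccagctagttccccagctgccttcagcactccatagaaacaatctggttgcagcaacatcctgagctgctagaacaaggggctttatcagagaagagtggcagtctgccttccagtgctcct
Cacnb3 near a start: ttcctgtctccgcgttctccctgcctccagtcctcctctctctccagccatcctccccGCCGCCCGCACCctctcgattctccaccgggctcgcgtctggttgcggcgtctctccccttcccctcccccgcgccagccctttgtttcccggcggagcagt
Cacna2d3 intron 2: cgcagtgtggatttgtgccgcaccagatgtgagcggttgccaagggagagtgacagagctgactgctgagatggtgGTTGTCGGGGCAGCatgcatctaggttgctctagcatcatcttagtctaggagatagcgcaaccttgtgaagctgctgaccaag
Cacna2d3 intron 18: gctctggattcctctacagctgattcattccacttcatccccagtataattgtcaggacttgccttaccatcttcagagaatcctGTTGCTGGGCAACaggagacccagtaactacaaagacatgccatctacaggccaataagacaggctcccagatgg
Cacna2d4 upstream: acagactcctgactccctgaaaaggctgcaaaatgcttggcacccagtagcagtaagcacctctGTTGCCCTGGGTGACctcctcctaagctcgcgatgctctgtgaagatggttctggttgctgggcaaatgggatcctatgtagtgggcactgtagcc
Cacna2d4 intron 5: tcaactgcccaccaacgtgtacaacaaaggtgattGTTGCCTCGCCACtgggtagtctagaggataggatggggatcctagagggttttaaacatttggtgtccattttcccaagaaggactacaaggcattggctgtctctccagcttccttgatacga
Cacna2d4 intron 26: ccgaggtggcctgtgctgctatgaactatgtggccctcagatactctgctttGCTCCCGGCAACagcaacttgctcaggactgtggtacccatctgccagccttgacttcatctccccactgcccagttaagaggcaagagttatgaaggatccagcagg

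All 8 auxiliary subunit genes had an Rfx6 summit in the gene or within 50 kb, which 67.8% of all protein-coding genes had. A summit lay inside 7 of the 8 genes, against 31.3% of all genes, and the exception was Cacnb4. Since 6 of the 8 genes were longer than 100 kb and long genes hold more summits, the counts are set below against genes of similar length. For each gene these are the 200 protein-coding genes nearest in length. The share of these 200 with a summit inside was 62.0% to 73.0% for the 6 longer genes and 32.5% for Cacnb1 and Cacnb3. A summit lay within 1 kb of a transcription start of its own gene for Cacnb3 alone, 1 of 8 genes, against 22.6% of all genes.

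Of the 42 peaks, 27 lay inside the genes and 15 outside them. The α2δ genes held 22 of their 27 peaks inside the gene, and the β genes held 5 of their 15. These counts make no allowance for length. The α2δ genes are 115.9 to 816.9 kb long and the β genes 12.3 to 383.6 kb, with the same 50 kb searched on each side. Tags per peak, the reads of the 3HA-Rfx6 library under the whole peak, ran from 33 to 322 with a median of 67.5, and over all peaks from 24 to 3489 with a median of 73. Fold enrichment over the control, as the peak caller gave it, ran from 4.0 to 31.78 with a median of 8.2 at these genes and had a median of 8.54 over all peaks. The 27 peaks inside the genes had a median of 74 tags, as had all peaks in protein-coding genes. Only 3 of the 42 (7.14%) reached the 182 tags that marked the strongest peaks, which 10.1% of all peaks reached. The peaks at the auxiliary subunit genes were thus of ordinary size apart from those 3, which lay at Cacnb1, Cacnb2 and Cacna2d4.

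**Figure D1:**
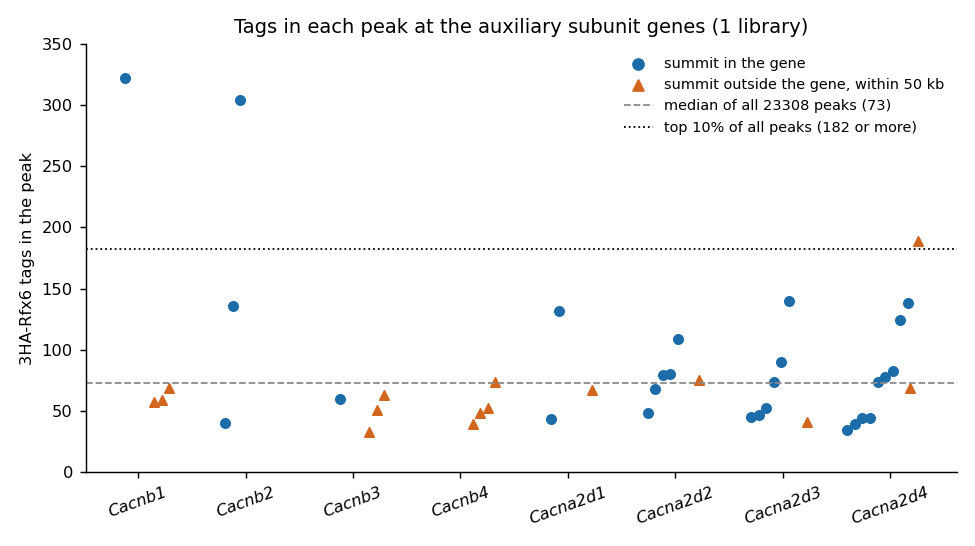
3HA-Rfx6 tags of each of the 42 peaks, by gene. Circles are summits in the gene, triangles summits outside it but within 50 kb, the dashed line is the median of all peaks (73 tags) and the dotted line the 182 tags that 10.1% of all peaks reached. The 2 highest points, 322 tags in Cacnb1 and 304 tags in Cacnb2, stand above every α2δ peak.

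Among the β subunit genes, the peak with the most tags was at the 3′ end of Cacnb1. This gene encodes the β1 subunit of the skeletal muscle channel and is also expressed elsewhere. By fold enrichment (30.54 against 24.7) and the score of the peak caller (1581.6 against 1561.29), the intron 1 peak of Cacnb2 ranked above the Cacnb1 peak. Cacnb1 (ENSMUSG00000020882.10; chr11:97862822-97884348, minus strand) had 1 summit inside and 3 outside. The inside peak held 322 tags (exact Poisson 95% interval 288 to 359) at a fold enrichment of 24.7, and 2.11% of all peaks had as many tags. Its summit at position 97864526 lay 19.82 kb from the gene start, in the coding part of exon 14, the last exon of transcript Cacnb1-001 and 1855 bp long. It was the only one of the 42 summits in a coding exon of the gene, a position that 7.12% of all summits had in any gene. The peak was wide, 2171 bp against a median of 1196 bp over all peaks, and GC-rich, with 65.5% GC and 11 CpG dinucleotides in 200 bp, against medians of 54.0% and 3. The best X-box match in it had 9 of 12 bases and is shown in capitals in the first sequence above.

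The other 3 peaks of Cacnb1 were weaker. A peak of 69 tags lay 0.53 kb beyond the end of the gene, with the start of Arl5c as its nearest start. The remaining peaks, of 59 and 57 tags, lay inside the neighbouring genes Stac2 and Plxdc1, and the peak in Stac2 was 1.15 kb from the start of that gene. The tag counts of these 3 peaks did not differ beyond their counting intervals, and all were far below the 322 tags of the exon 14 peak.

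Cacnb2 encodes the β2 subunit, the main β subunit of the heart, which is also made in β cells. The gene (ENSMUSG00000057914.8; chr2:14525933-14909535, plus strand) is 383.6 kb long, and its 3 summits all lay in its introns. The first, in intron 1 of Cacnb2-004 and 4.52 kb from the gene start, held 304 tags (interval 271 to 340) at a fold enrichment of 30.54, the highest fold inside any of the 8 genes. Its tag count could not be told apart from that of the Cacnb1 exon 14 peak, since their intervals overlap. The summit lay 3.71 kb downstream of the start of the shorter transcript Cacnb2-002. Its best X-box match had 9 of 12 bases and began close to the left edge of the printed sequence, 70 bp from the summit. Next to the summit the same sequence reads gttgcagcaac, which is GTTGC and GCAAC around a single base.

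A second strong peak of Cacnb2 lay in intron 3, 271.46 kb from the gene start and 1.95 kb downstream of the start shared by the transcripts Cacnb2-007 and Cacnb2-202. It held 136 tags (interval 114 to 161) at a fold enrichment of 14.12, and 18.5% of all peaks had as many. Its 9 of 12 match was centred 4.5 bp from the summit. The third peak, in the 260413 bp of intron 2, held 40 tags (interval 28.6 to 54.5) at a fold enrichment of 7.3, below both others beyond counting error. The 2 stronger peaks of Cacnb2 lay 3.71 and 1.95 kb downstream of an annotated alternative start. Neither lay within 1 kb of one, against 21.0% of all peaks within 1 kb of a coding start. No share of all peaks was taken at the longer distances.

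Cacnb3 encodes the β3 subunit, which is abundant in brain and also present in islets. The gene (ENSMUSG00000003352.7; chr15:98462651-98474961, plus strand) is 12.3 kb long, the shortest of the 8. Its inside peak held 60 tags at a fold enrichment of 7.3, with the summit at position 98465026, 169 bp upstream of the start of one of its coding transcripts and in intron 1 of the other. The 200 bp around the summit had 65.5% GC and 16 CpG dinucleotides. The best X-box match had 8 of 12 bases, below the 10 of 12 used here as the mark of a match. The 3 outside peaks of 51, 33 and 63 tags lay at or near neighbouring genes. The 51 tags lay in Adcy6, 0.59 kb from its start, the 33 tags lay 2.52 kb upstream of that start, and the 63 tags lay in Rnd1, 0.81 kb from its start. The 60, 51 and 63 tags had overlapping counting intervals, so the peak of Cacnb3 was no stronger than those of its neighbours.

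Cacnb4 encodes the β4 subunit, which is mainly neuronal. No summit lay in its 248.5 kb (ENSMUSG00000017412.8; chr2:52283845-52532350, minus strand). A cluster of 3 peaks lay 25.72, 21.87 and 19.57 kb upstream of its start, inside the neighbouring gene Stam2, with 74, 39 and 52 tags and fold enrichments of 10.74, 9.18 and 11.06. A start of Cacnb4 was nonetheless the start nearest to each of these summits. The fourth peak, of 48 tags, lay 3.8 kb beyond the end of Cacnb4 in Arl5a, 0.38 kb from the start of Arl5a.

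Among the α2δ subunit genes, more peaks lay inside the genes, a count not set against gene length, and the peaks were more even in size. The 22 inside peaks held 34 to 140 tags with a median of 74, and their fold enrichment reached 16.01 at most. No inside peak of an α2δ gene came near the 322 and 304 tags of Cacnb1 and Cacnb2. Cacna2d1, which encodes the widely expressed α2δ-1 of muscle, brain and islets, had the fewest (ENSMUSG00000040118.8; chr5:15440509-15880329, plus strand). Its leading peak, in the 31702 bp of intron 4 and 251.01 kb from the start, held 132 tags (interval 110 to 157) at a fold enrichment of 16.01. The other inside peak, in intron 2, held 43 tags and lay 0.65 kb from the start of the small gene model Gm17320. A peak of 67 tags lay 35.35 kb upstream.

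Cacna2d2 encodes α2δ-2, best known from cerebellar Purkinje cells. The gene (ENSMUSG00000010066.8; chr9:107301943-107431677, plus strand) held 5 summits, in introns 2, 2, 3, 21 and 31, with 79, 48, 80, 68 and 109 tags in that order. Their fold enrichments were 13.42, 6.29, 10.1, 6.83 and 10.12. The highest tag count, 109 (interval 89.5 to 131), belonged to the summit farthest from the start, 126.06 kb into the gene in an intron of only 240 bp, while the highest fold belonged to the first. The interval of the 109 tags overlaps those of the 80 and 79 tags and lies above those of the 68 (52.8 to 86.2) and 48 tags (35.4 to 63.6). A sixth peak, of 75 tags, lay 14.09 kb upstream.

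Cacna2d3 encodes α2δ-3, mainly a neuronal subunit, and at 816.9 kb is the longest of the 8 genes (ENSMUSG00000021991.7; chr14:29718133-30535050, minus strand). Its 6 inside summits lay in introns 2, 2, 3, 4, 17 and 18, with 74, 45, 140, 90, 47 and 52 tags from the 5′ to the 3′ end. The 140 tags in intron 3, 236.23 kb from the start (interval 118 to 165), were the highest count inside any α2δ gene. They could not be told apart from the 138 tags in Cacna2d4, the 136 in Cacnb2 or the 132 in Cacna2d1. The peak in intron 2 closest to the start, 9.88 kb into the gene, had fewer tags but the highest fold of the gene, 13.47, and a match of 10 of 12 bases centred 3.5 bp from the summit. The weak peak of 52 tags in intron 18, 649.04 kb from the start, held the closest X-box of all 42 peaks, 11 of 12 bases. Its printed sequence reads GTTGCTGGGCAAC, which departs from the repeat in a single base of the left arm. A seventh peak, of 41 tags, lay 5.41 kb upstream.

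Cacna2d4 encodes α2δ-4, best known from the retina, and had the most peaks, 9 inside and 2 upstream, in a gene of 115.9 kb (ENSMUSG00000041460.7; chr6:119186544-119302425, plus strand). The inside peaks lay in introns 2, 5, 13, 24, 25, 26, 26, 26 and 34, with 74, 138, 34, 83, 39, 124, 44, 44 and 78 tags. The 138 tags (interval 116 to 163) in intron 5 lay 6.47 kb from the gene start, and the summit was 52 bp from the 5′ end of the intron. That peak was 2537 bp wide and its fold enrichment was only 8.16, below the median of all peaks despite its tag count. Its match of 10 of 12 bases, GTTGCCTCGCCAC, had an intact left arm. The next highest count, 124 tags in intron 26, overlapped the 138 in counting error and lay 79.51 kb from the gene start.

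A run of 5 summits in introns 24 to 26 of Cacna2d4 spanned 17.1 kb. The last 3 of them, with 124, 44 and 44 tags, also lay in Lrtm2, a gene for a leucine-rich repeat membrane protein that runs on the opposite strand within intron 26, so they belong to both genes by position. The final summit of the run had a match of 10 of 12 bases, with the right arm GGCAAC intact, 4.02 kb from the start of Lrtm2-003.

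The strongest peak near Cacna2d4 was outside it. It held 189 tags (interval 163 to 218) at a fold enrichment of 31.78, the highest of all 42 peaks and a level that 2.64% of all peaks reached. Its summit at position 119151671 lay 34.87 kb upstream of Cacna2d4, inside Dcp1b, and 5.42 kb upstream of the start of Cacna1c-204, a transcript of the gene for the L-type pore subunit CaV1.2 on the other strand. The match of 10 of 12 bases under it, GTTGCCCTGGGTGAC, was centred 9 bp from the summit. The other upstream peak, of 69 tags, lay 41.83 kb from Cacna2d4 inside both Cacna1c and Dcp1b, 1.54 kb into Cacna1c. These 2 peaks are therefore nearer to a pore gene than to the auxiliary gene, and the peak list does not assign them to either.

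**Figure D2:**
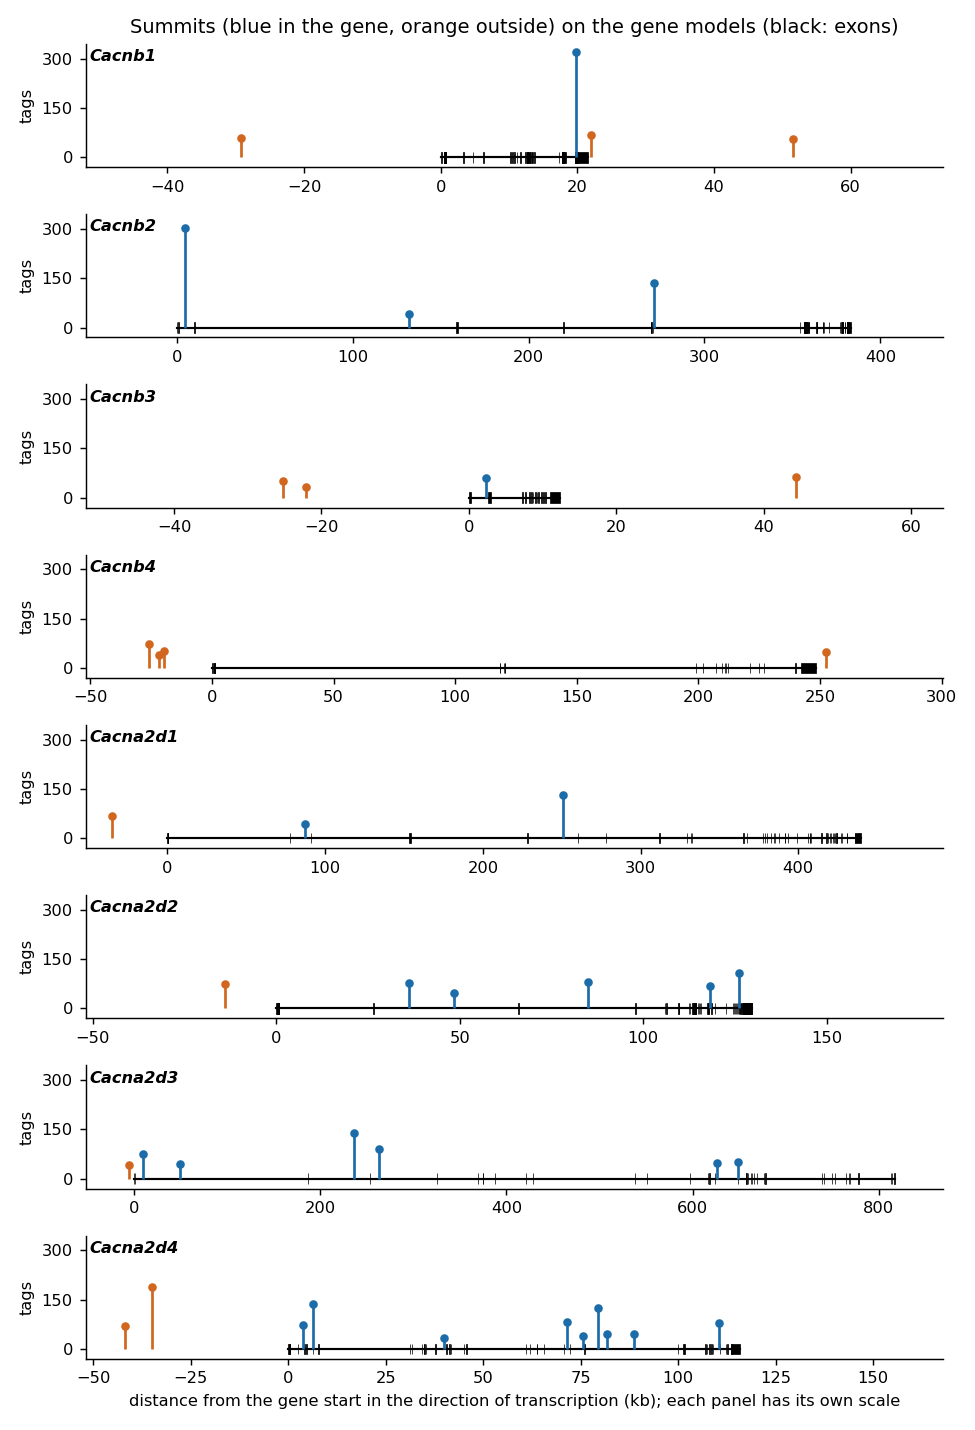
Summits along each of the 8 genes and 50 kb on either side, with distance from the gene start in kb on the x axis (upstream negative, each gene on its own scale) and tags on the y axis. Each stem is 1 peak (blue in the gene, orange outside), and the black line with ticks is the gene with its exons. The outside summits of the β genes and the run of 5 summits in the 3′ part of Cacna2d4 can be read from the positions of the points.

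Most summits inside the genes lay in introns, as does most of the sequence of these genes. Whether gene make-up accounts for the positions was not tested. Of the 27 inside summits, 26 (96.3%, Wilson 95% interval 81.7 to 99.3) lay in introns, and introns make up 97.7% of the 2.17 Mb of the 8 genes. Over all summits in protein-coding genes, 76.1% lay in no exon. Of the 26 intronic summits, 14 lay in introns 1 to 4, a count set neither against the length of those introns nor against all peaks. Summits within 1 kb of any coding transcript start numbered 5 of 42 (11.9%, interval 5.19 to 25.0), against 21.0% of all peaks. The 5 were the peaks at starts of Cacnb3, Adcy6, Rnd1, Arl5a and Gm17320, so that only 1 of these starts was that of a calcium channel gene. The summit near the start of Gm17320 itself lay in intron 2 of Cacna2d1. Of the 15 outside peaks, 10 (66.7%, interval 41.7 to 84.8) lay in another protein-coding gene. Over all peaks, 13926 of 23308 lay in a protein-coding gene. Of the same 15, 6 had a start of the auxiliary subunit gene as their nearest start, a count with no share over all peaks beside it.

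The number of summits per 100 kb placed the genes differently against genes of similar length. Cacna2d4, with 7.77 summits per 100 kb, exceeded 97.5% of the 200 genes nearest to it in length. Those genes ran from 111.0 to 120.8 kb, had a median of 1 summit and held 11 at most. The peaks inside Cacna2d4 had a low fold enrichment, with a median of 6.36 against 8.54 over all peaks. When only peaks with a fold enrichment of at least 10 counted, Cacna2d4 exceeded 75.5%. Cacna2d2, with 3.85 summits per 100 kb, exceeded 91.5% of its 200, and 94.0% under that fold limit. Cacnb3, with 8.12, and Cacnb1, with 4.64, exceeded 78.5% and 78.0%, each on the strength of 1 summit in a short gene, and 32.5% of the genes nearest to either in length held at least 1.

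The 3 longest genes had fewer summits per 100 kb than the genes just named, but each exceeded the median of the 200 genes nearest in length. Those medians were 0.195 for Cacna2d3, 0.488 for Cacnb2 and 0.397 for Cacna2d1. Cacna2d3, with 0.73 summits per 100 kb, exceeded 76.5% of its 200, although those genes spanned a wide range of length, from 468.4 to 1139.2 kb. Cacnb2, with 0.78, exceeded 65.5%, and Cacna2d1, with 0.46, exceeded 53.5%, close to the middle. Cacnb4 had none, as had 28.0% of the 200 genes of its length. These percentages describe the order of single genes and carry no test.

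**Figure D3:**
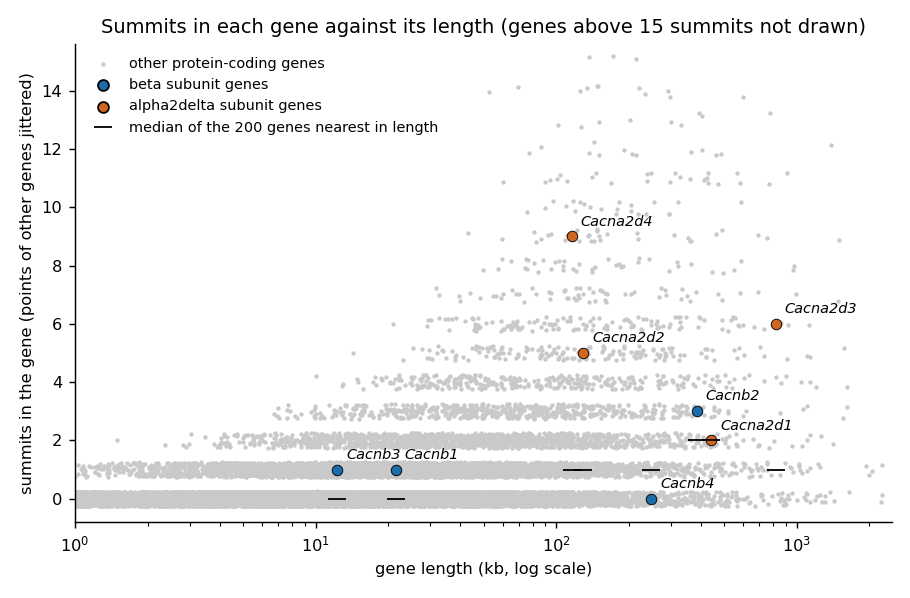
Summits inside each protein-coding gene against its length (kb, log scale), with the auxiliary genes in colour, other genes as grey points shifted slightly at random, and dashes for the median of the 200 genes nearest in length; genes with more than 15 summits are not drawn. Cacna2d4 (9 summits) and Cacna2d2 (5 summits) stand above most genes of their length, and Cacnb4 lies at 0.

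At 10 of 12 bases, the mark of a match used here, the share of peaks with an X-box match was below that of all peaks but within counting error. Among the several definitions tried, the share of all peaks lay outside the counting interval only at the looser 9 of 12 bases. The intervals treat peaks of the same gene as independent. A match of at least 10 of 12 bases in the 200 bp around the summit, on either strand, was present in 5 of the 42 peaks (11.9%, interval 5.19 to 25.0), against 19.8% of all peaks and 2.15% of windows placed 1 kb to the right of all summits. Inside the genes the count was 4 of 27 (14.8%, interval 5.92 to 32.5). All 5 matches fell in Cacna2d3 and at Cacna2d4, and no β gene peak had one. The strongest 2 peaks, in Cacnb1 and Cacnb2, had 9 of 12 bases. At least 9 were present in 18 of the 42 peaks (42.9%, interval 29.1 to 57.8), against 58.7% of all peaks (interval 58.1 to 59.3) and 20.2% of the windows to the right. A strict degenerate X-box was present in 2 of 42 peaks (4.76%), the upstream peak of Cacna2d4 and the intron 18 peak of Cacna2d3, against 6.42% of all peaks.

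A single arm, GTTGC or its complement GCAAC, was looked for after the data had been seen. At least 1 was present in 21 of 42 peaks (50.0%, interval 35.5 to 64.5), against 56.0% of all peaks and 21.3% of the windows to the right. It was present in 17 of the 27 inside peaks and 4 of the 15 outside peaks. At least 2 were present in 9 of 42 (21.4%), against 18.8% of all peaks and 2.47% of the windows. The intron 1 peak of Cacnb2 and the peak of Cacna2d3 closest to its start each had 3. A match describes the letters in a window and is not evidence of a bound site.

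**Figure D4:**
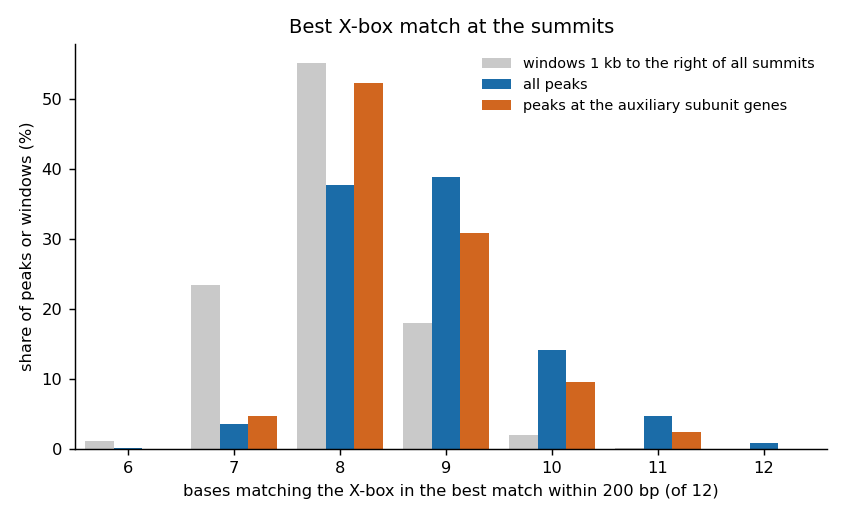
Percent of peaks by the number of bases, of 12, that the best X-box match shares with GTTGCC and GGCAAC, for the 42 peaks, all 23308 peaks and the windows 1 kb to the right (1 peak and 25 windows with 5 bases are not drawn). From 7 to 11 bases the bars of the 42 peaks lie between those of the other groups, with 11.9% at 10 or more against 19.8% and 2.15%.

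**Figure D5:**
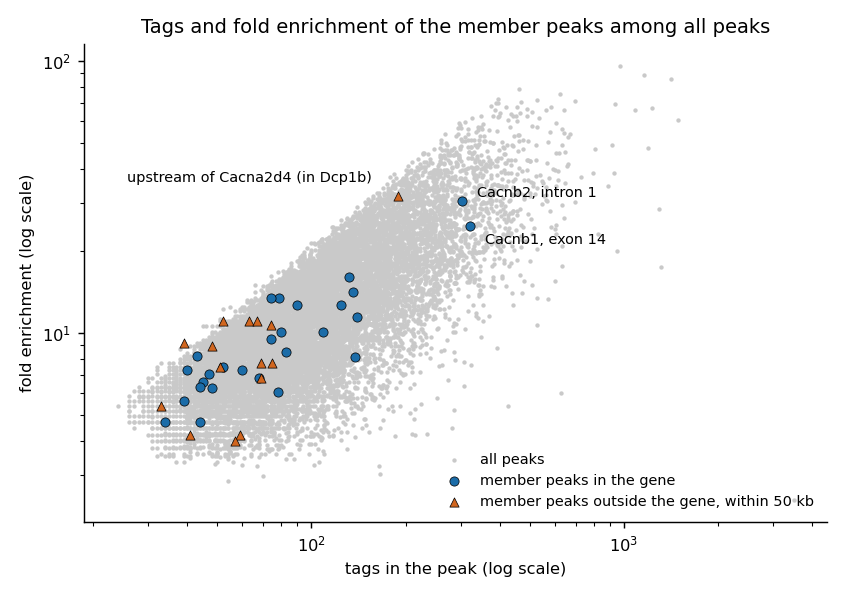
Tags against fold enrichment (both log scales) of the 42 peaks over all peaks in grey; circles are summits in the gene and triangles summits outside it. The intron 1 peak of Cacnb2, the exon 14 peak of Cacnb1 and the peak upstream of Cacna2d4 lie apart from the other 39.

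Beside the auxiliary genes, the genes of the pore and of the γ subunits were counted in the same way. Of 10 pore genes, 9 had a summit inside, and of 8 γ genes, 2 had one and 4 had one within 50 kb. The shares of all protein-coding genes were 31.3% with a summit inside and 67.8% with one in the gene or within 50 kb. Gene length was not allowed for in the counts of pore and γ genes. The pore genes are 28.1 to 603.9 kb long and the γ genes 10.2 to 128.3 kb. Cacna1c, the pore gene next to Cacna2d4, held 19 summits in 603.9 kb and exceeded 98.5% of the genes of its length.

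The library behind the peaks bears on every value. The 3HA-Rfx6 library had 49443917 tags, of which 33949757 (68.7%) were kept by the filter of the peak caller, and the control had 16911298, of which 3567375 (21.1%) were kept, a ratio of 9.52 between the kept tags. The peak caller's false discovery rate at the 42 peaks ran from 1.8% to 6.43%, with the highest values at the strongest peaks, in Cacnb1 and Cacnb2. The part of the shallow control in the fold enrichments and in these rates was not tested. Counting intervals and binomial intervals cover counting error only, and differences between genes have no replicate behind them.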

How the data were processed

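ChIP-seq reads of 50 bases were processed by the authors with CASAVA 1.8.2, Bowtie and MACS 1.4.2 against mm9, as the submitters' processing notes and the file header give them; the header states a p-value cutoff of 1e-05 and a fragment size of 234 bp. The deposited peak list gives, for each peak of the 3HA-Rfx6 library against the control, tag counts, a score of 10 × −log10 of the p-value, fold enrichment as a ratio, and a false discovery rate in percent, per the file headers. No file of the control was used here beyond the totals in that header. The 8 genes, the lists and the tests were chosen with earlier results of these data known. Summits were assigned to GENCODE M1 genes, and the text names all 8 genes with their peaks. X-box matches were counted in 200 bp of NCBIM37 with Python 3.11.15, pandas 2.3.3, scipy 1.17.1 and pysam 0.24.0. On simulated data, 1653 genes were counted exactly (100%) and 400 planted X-boxes were found (100%). With 1 library per condition no test between conditions was possible. Alternatives were other distances, peak thresholds, numbers of genes of similar length, rankings and X-box definitions.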

Additional observations from a re-analysis of the deposited data

How the results depend on the processing

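No paired analysis was possible because each condition had 1 library. The 42 summits became 30 within 10 kb, 55 within 100 kb, 27 in the genes alone, 16 among the 9223 peaks with a fold enrichment of at least 10, 19 among the 11654 peaks with the highest scores, and 0 among the 10 peaks with a false discovery rate of at most 1%, where the number of genes with a summit also fell from 8 to 0. Of all protein-coding genes, 0.125% had a summit at that false discovery rate. Under the other limits 7 or 8 genes kept a summit. The share of all genes was 47.1% within 10 kb, 76.7% within 100 kb and 31.3% in the gene alone. It was 45.6% at a fold enrichment of at least 10 and 51.1% among the peaks with the highest scores. The leading peak by tags was also the leading peak by score in 8 genes and by fold enrichment in 5, the exceptions being Cacnb4, Cacna2d2 and Cacna2d3. The share of peaks with an X-box match, 11.9%, became 42.9% at 9 of 12 bases, 2.38% at 11 of 12, 4.76% with the strict definition and 50.0% with a single arm, and stayed at 11.9% within 50 bp of the summit. The count of genes denser than the median of genes of their length was 7 and ran from 6 to 8. Under the alternatives, Cacna2d4 exceeded 75.5% to 99.0% of genes of its length and Cacna2d2 84.5% to 95%. Cacnb3 ranged from 0% to 80.5%. The lowest values of Cacna2d4 and Cacnb3 were those when only peaks with a fold enrichment of at least 10 counted. Cacnb4 ranged from 0% to 66.5%, the latter with 50 kb on each side.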

Other observations

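Some values near the limits of the rule and among related genes were picked out after they had been seen. The peaks nearest to the 50 kb limit were those 35.35 kb (67 tags) and 41.83 kb (69 tags) from Cacna2d1 and Cacna2d4 on the inner side, and those 50.47 kb beyond Cacna2d2 (68 tags) and 53.02 kb beyond Cacnb3 (34 tags) on the outer side. Among the pore genes, Cacna1i, a T-type pore gene of nearly the same length as Cacna2d4, held 11 summits in 111.0 kb and exceeded 99.5% of genes of its length. Among the γ subunit genes, Cacng4 held 6 summits in 62.2 kb and also exceeded 99.5%, whereas Cacng5, Cacng6, Cacng7 and Cacng8 had no summit in the gene or within 50 kb.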
